A study of Homo sapiens with 6 samples.

Results

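Cellular zinc is set by transporters that move it across membranes and by proteins that bind it, and the genes of both were followed here in U87, an established human glioblastoma cell line. A gene was included when its symbol in the deposited table named an SLC30A transporter, an SLC39A transporter, MTF1, MT2A, MT3 or a lettered MT1 gene and its transcripts included a protein-coding one. The rule selected 32 of the 32299 genes in the table: 14 SLC39A genes, 9 SLC30A genes, 8 metallothioneins and MTF1. SLC30A10 and MT1L matched by symbol, but the table lists no protein-coding transcript for them, so they are not members. The RNA sequencing data comprised 3 libraries labelled as overexpressing tau, a microtubule-binding protein, and 3 libraries labelled as transfected with a control vector. All 6 came from the same cell line. The labels give no promoter, dose or time for the tau construct. They also leave unsaid whether each library had its own culture, so the spread behind the p-values may be technical.

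SLC39A proteins, also called ZIPs, carry zinc into the cytosol from outside the cell or from organelles. SLC30A proteins, also called ZnTs, carry it out of the cytosol, across the plasma membrane or into vesicles and the secretory pathway. Metallothioneins are small cysteine-rich proteins that hold zinc and copper, and their genes are switched on by MTF1, a zinc-sensing transcription factor that binds short promoter sequences called metal response elements. In the brain, metallothioneins are known mainly from astrocytes.

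The libraries held 58229083 to 65512119 counts each. Tau's own gene, MAPT, gave 145, 150 and 176 counts with the tau label, against 279, 391 and 345 counts with the control label. Its fitted log2 fold change of -1.20 (SE 0.21) thus ran against the labels (edgeR adjusted p = 0.00151). An exact permutation test, two-sided, reached p = 0.1, the floor for 3 against 3 libraries. The libraries are therefore named by their labels throughout, and every direction below is drawn between libraries so labelled. The mesenchymal markers VIM and CD44 had at least 1307 and 81.7 FPKM in every library, while the glial markers GFAP, S100B, SOX2 and OLIG2 had at most 0.555 FPKM. Of the 5 glioma markers tested, VIM rose (log2 fold change 0.29), NES and GFAP fell (-2.15 and -1.29), and CD44 and OLIG2 did not pass. Markers of leukocytes, endothelium, epithelium and neurons summed to at most 1.14, 2.74, 0.325 and 0.968 FPKM in any library. The leukocyte sum, in which CD14 was the sole listed gene, ran from 0.116 to 0.154 in tau-labelled and from 0.759 to 1.14 FPKM in control-labelled libraries. The endothelial sum ran from 0.403 to 0.449 and from 2.34 to 2.74 FPKM in the same order of groups, and the part of these markers in any result was not tested. In bulk libraries, fewer cells of a type and less RNA per cell cannot be told apart.

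Of the 32 members, 23 had enough counts to be tested, and 5 of these rose and 9 fell in the tau-labelled libraries. Changes are called where the quasi-likelihood test of edgeR, run on the counts of all 17927 genes that passed the filter on low counts, gave a Benjamini-Hochberg adjusted p below 0.05. By that rule 21.3% of all genes tested rose and 21.4% fell, 42.7% in all, against 14 of the 23 tested members. Without control-labelled library 2, 3 members rose and 6 fell, where 2907 of all genes tested rose and 2956 fell. With every library kept, 3822 of all genes rose and 3830 fell. The absolute log2 fold change had a median of 0.48 over the tested members and 0.52 over all genes tested. The signed median was -0.07 over the members and 0.00 over all genes. FPKM values of the groups did not overlap for 15 of the 23 members, where 56.1% of all genes tested did not overlap. By TMM-scaled CPM, counts scaled for library size and composition, 14 members and 54.7% of all genes did not overlap. Each fold change was also computed in up to 20 other settings of scaling, filter, tool, offset or left-out library. The 9 untested members, SLC30A2, SLC30A8, SLC39A2, SLC39A5, SLC39A12, MT1B, MT1G, MT1M and MT3, had no more than 20 counts and no more than 0.246 FPKM in any library.

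**Figure D1:**
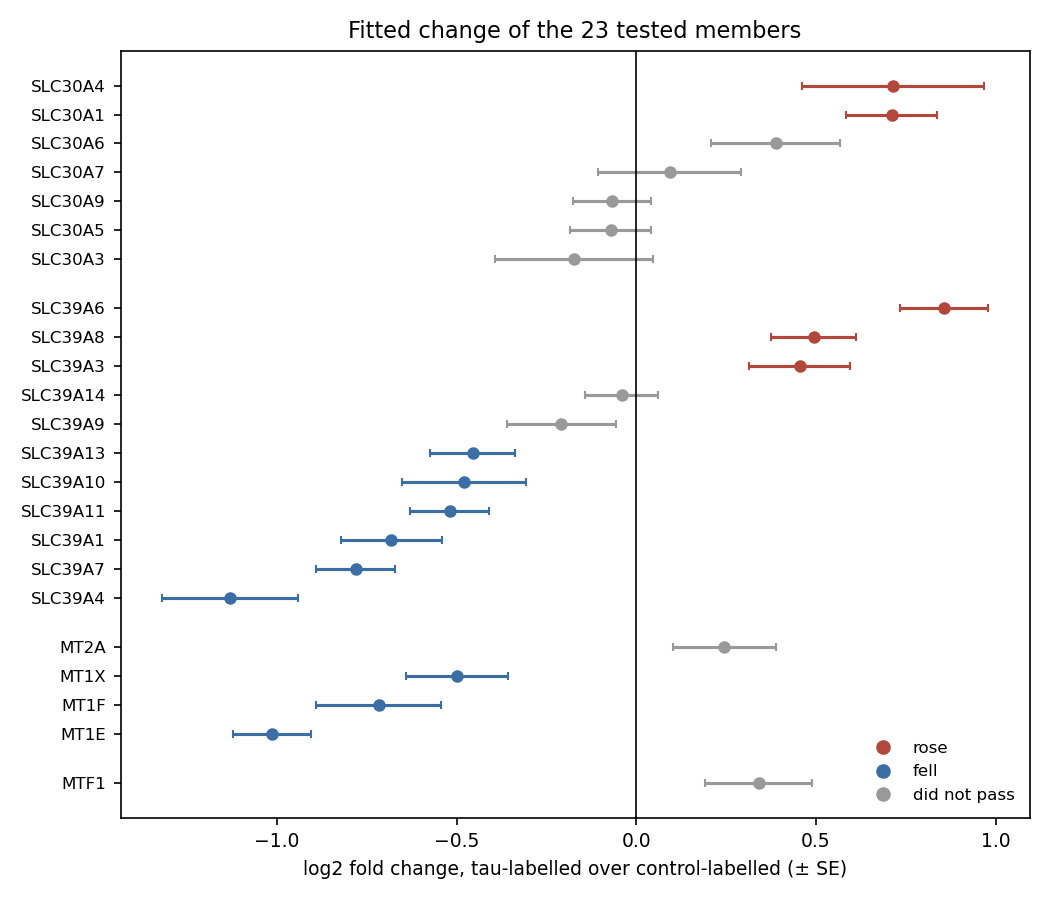
Fitted log2 fold change of each tested member, tau-labelled over control-labelled libraries, with its standard error as the bar; colours mark members that rose, fell or did not pass at an adjusted p of 0.05. SLC39A6 stands furthest to the right at 0.86 and SLC39A4 furthest to the left at -1.13.

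The metallothionein genes lie in a cluster of 95.1 kb on chromosome 16 (56589074 to 56684196 on GRCh38) and encode closely related proteins. The coding sequences of the 4 metallothioneins with measurable expression are shown from the reference transcripts, because their likeness bears on how reads can be told apart. Capitals mark in-frame TGC and TGT codons, which encode the cysteines that bind metal.
MT2A: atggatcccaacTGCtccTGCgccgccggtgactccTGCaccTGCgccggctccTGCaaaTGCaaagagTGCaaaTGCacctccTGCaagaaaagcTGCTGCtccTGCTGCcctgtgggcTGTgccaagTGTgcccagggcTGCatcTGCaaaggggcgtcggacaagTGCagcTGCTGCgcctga
MT1E: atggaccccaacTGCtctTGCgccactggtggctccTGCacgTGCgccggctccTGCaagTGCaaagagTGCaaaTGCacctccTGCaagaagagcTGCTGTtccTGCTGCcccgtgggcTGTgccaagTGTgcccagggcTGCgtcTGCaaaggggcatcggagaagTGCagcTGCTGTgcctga
MT1X: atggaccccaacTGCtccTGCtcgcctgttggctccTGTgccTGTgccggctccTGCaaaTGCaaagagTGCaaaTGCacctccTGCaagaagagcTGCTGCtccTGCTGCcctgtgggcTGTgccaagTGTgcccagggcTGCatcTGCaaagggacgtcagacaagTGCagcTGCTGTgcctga
MT1F: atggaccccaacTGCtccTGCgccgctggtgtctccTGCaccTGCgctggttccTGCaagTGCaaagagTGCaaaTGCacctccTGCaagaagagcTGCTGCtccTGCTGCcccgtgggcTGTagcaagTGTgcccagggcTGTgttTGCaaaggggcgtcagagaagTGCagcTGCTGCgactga
Each has 186 bases and 20 cysteine codons. Aligned base by base, MT2A matched MT1E and MT1X at 92.5% of positions and MT1F at 91.4%, and MT1X and MT1F, the least alike pair, matched at 88.7%. Over the whole reference transcripts, however, no stretch of 150 bases, the read length, in MT2A, MT1E or MT1F occurred unchanged in a transcript of another gene. In MT1X, 5.6% of such stretches did. How the authors' counting treated reads that fit several copies is not given in the sources used here, so values of single metallothionein genes remain uncertain to that extent.

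Within this cluster the 3 MT1 genes that could be tested fell, while MT2A, by far the most abundant metallothionein, did not pass. The share of all genes tested that fell was 21.4%. MT1E had 36.5, 34.1 and 33.8 FPKM in tau-labelled libraries 1, 2 and 3, against 67.6, 63.8 and 62.5 FPKM in control-labelled libraries 1, 2 and 3. MT1F had 3.37, 4.26 and 4.80 FPKM in tau-labelled libraries, against 5.81, 6.74 and 6.39 FPKM in control-labelled libraries. MT1X had 13.4, 13.0 and 13.7 FPKM in tau-labelled libraries, against 15.5, 20.9 and 15.8 FPKM in control-labelled libraries. All 3 genes were lower in every tau-labelled library than in any control-labelled one, and MT1X by the narrowest margin as a ratio. The median log2 fold change of the 4 tested metallothioneins was -0.61. MT1E fell 2.02-fold (log2 fold change -1.01, SE 0.11, edgeR adjusted p = 0.000116). MT1F fell 1.64-fold (log2 fold change -0.72, SE 0.17, edgeR adjusted p = 0.00858), and by 0.45 on the log2 scale with an offset for GC content. MT1X fell 1.41-fold (log2 fold change -0.50, SE 0.14, edgeR adjusted p = 0.0181). The call for MT1X ended in 7 of 20 other settings, among them the offsets for gene length (-0.31) and GC content (-0.31) and the fits without tau-labelled library 1 (edgeR adjusted p = 0.0614), tau-labelled library 2 (0.0673) or control-labelled library 2 (0.0891). MT1L, a metallothionein gene between MT2A and MT1E that the table does not list as coding, fell by 0.69 on the log2 scale (edgeR adjusted p = 0.0125).

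MT2A had 458, 476 and 550.5 FPKM in tau-labelled libraries 1, 2 and 3, against 427, 403 and 323 FPKM in control-labelled libraries 1, 2 and 3. It ranked at percentile 99.7 of the genes tested by mean FPKM. The FPKM values of the groups did not overlap, but after TMM scaling they did. TMM-scaled CPM was 428, 443 and 534 in tau-labelled libraries, against 453, 412 and 320 in control-labelled libraries. The fitted log2 fold change of MT2A was 0.25 (SE 0.14, edgeR adjusted p = 0.196), which did not pass. It passed in 6 of 20 other settings, with library size alone (0.36, edgeR adjusted p = 0.0375), with limma on FPKM at 3 pseudocounts (0.37, limma adjusted p = 0.0297 to 0.0298), and with offsets for gene length (0.41, edgeR adjusted p = 0.0326) or GC content (0.55, edgeR adjusted p = 0.000314). Library size alone moved the median of all genes to 0.12 and limma on FPKM moved it to between 0.13 and 0.16, while with the offsets for gene length and GC content it was -0.00366 and -0.015. The value stayed positive in all 20 settings, from 0.10 to 0.55.

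MT2A made up a larger part of the metallothionein FPKM in every tau-labelled library than in any control-labelled one, while the totals overlapped. Summed over the 8 members, metallothionein FPKM was 547 ± 48.9 in tau-labelled and 473 ± 57.7 in control-labelled libraries (SD, n = 3 each). The single libraries had 512, 527 and 603 FPKM with the tau label, against 516, 495 and 407 FPKM with the control label. MT2A made up 89.5%, 90.3% and 91.3% of that sum in tau-labelled libraries, against 82.8%, 81.5% and 79.2% in control-labelled libraries. Without MT2A the sum was 52.5 ± 1.13 FPKM in tau-labelled and 88.4 ± 3.49 FPKM in control-labelled libraries (SD, n = 3 each). The ratio of MT2A to MT1E, which does not depend on how libraries are scaled, was 12.6, 14.0 and 16.3 in tau-labelled libraries, against 6.32, 6.32 and 5.16 in control-labelled libraries. These sums and ratios were described and not tested.

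**Figure D2:**
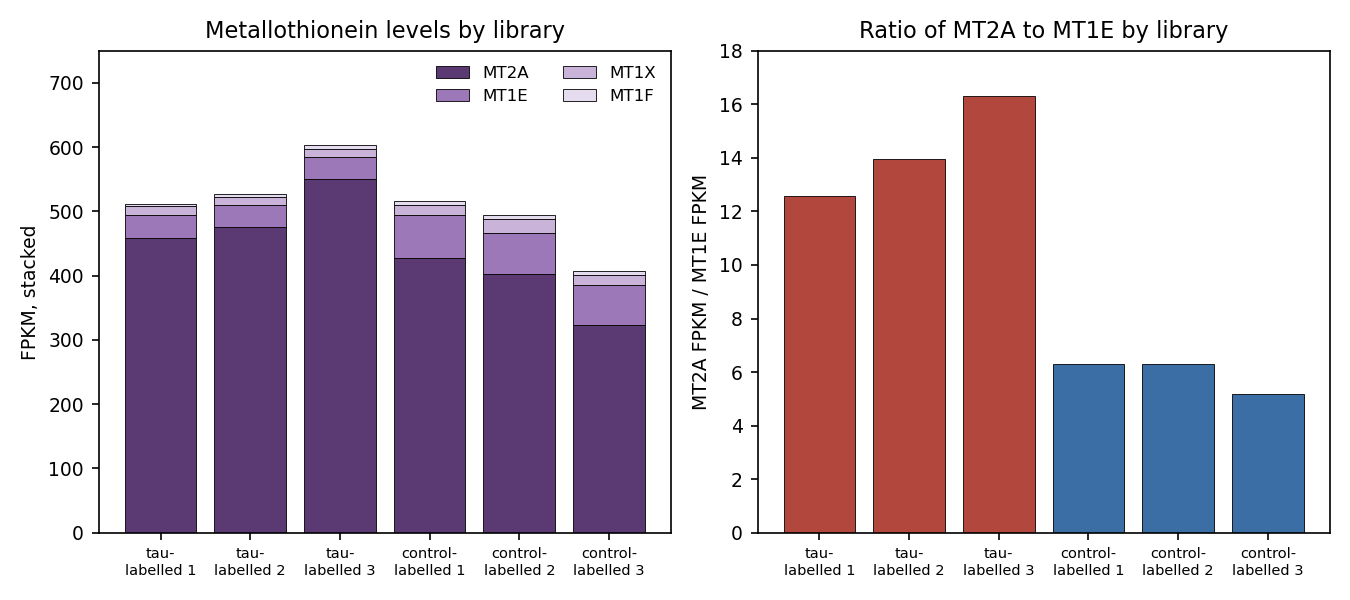
Left, FPKM of MT2A, MT1E, MT1X and MT1F stacked for each of the 6 libraries; right, the ratio of MT2A to MT1E FPKM in the same libraries. MT2A fills most of every bar, and the ratio is 12.6 to 16.3 in tau-labelled and 5.16 to 6.32 in control-labelled libraries.

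Neighbouring genes on chromosome 16 were looked at beside the metallothioneins. Within 200 kb of the cluster 5 other genes were tested, with log2 fold changes from -0.41 to 0.19. BBS2, a component of the ciliary BBSome complex, was the one that passed (-0.41, edgeR adjusted p = 0.0442), where 42.7% of all genes tested passed.

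**Figure D3:**
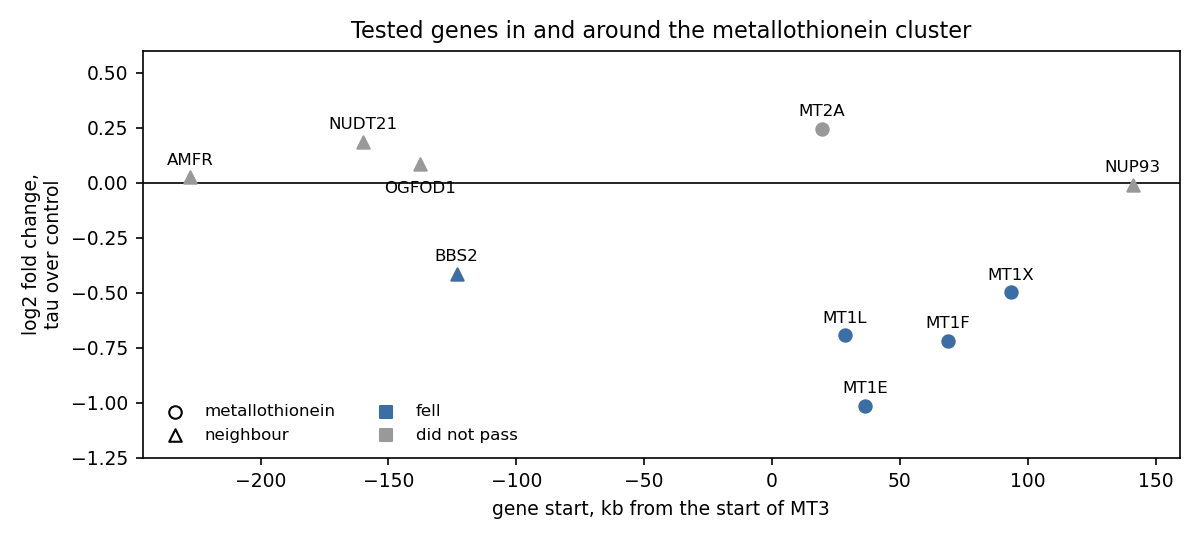
Log2 fold change, tau-labelled over control-labelled, of each tested gene in and around the metallothionein cluster by the distance of its start from that of MT3 in kb; circles are metallothioneins and triangles neighbours. MT1L, MT1E, MT1F and MT1X have values of -0.50 or lower, while MT2A stands at 0.25.

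MTF1 itself (chromosome 1, 37809574 to 37859592) had 4.39, 4.29 and 3.25 FPKM in tau-labelled libraries 1, 2 and 3, against 2.40, 3.27 and 3.02 FPKM in control-labelled libraries 1, 2 and 3. The groups overlapped, tau-labelled library 3 lying just below control-labelled library 2. Its log2 fold change of 0.34 (SE 0.15) did not pass (edgeR adjusted p = 0.0944). It passed in 4 of 20 other settings, without tau-labelled library 3 (0.45, edgeR adjusted p = 0.0369) and with limma on FPKM (0.35 to 0.44, limma adjusted p = 0.0471 to 0.0480).

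SLC30A1, which exports zinc through the plasma membrane and is a known target of MTF1, had the smallest p among the ZnTs. Of 7 ZnTs tested, 2 rose, 0 fell and 5 did not pass, with a median log2 fold change of 0.09. Thus 28.6% of the ZnTs passed, below the 42.7% of all genes tested. SLC30A1 (chromosome 1, 211571568 to 211579161) had 6.16, 6.41 and 5.78 FPKM in tau-labelled libraries 1, 2 and 3, against 3.73, 2.99 and 3.61 FPKM in control-labelled libraries 1, 2 and 3. Every tau-labelled library lay above every control-labelled one. It rose 1.64-fold (log2 fold change 0.71, SE 0.13, edgeR adjusted p = 0.00178). With an offset for GC content this became 0.26 (edgeR adjusted p = 0.169), and the call held in the other 19 settings. SLC30A4, which fills endosomal and lysosomal vesicles, stood much lower. It had 0.619, 0.709 and 0.430 FPKM in tau-labelled libraries, against 0.332, 0.244 and 0.406 FPKM in control-labelled libraries, the nearest values lying close together. It rose 1.64-fold (log2 fold change 0.71, SE 0.25, edgeR adjusted p = 0.0451), and the call ended in 9 of 16 other settings. With an offset for GC content the log2 fold change was 0.32 (edgeR adjusted p = 0.269). Also among these were fits without tau-labelled library 1 or 2 and without control-labelled library 1 or 2, with edgeR adjusted p from 0.0662 to 0.159.

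The ZnTs of the early secretory pathway did not pass. SLC30A5 and SLC30A6 encode partners in a heterodimer that, with SLC30A7, supplies zinc to enzymes such as alkaline phosphatases. SLC30A5, the most abundant ZnT, had 12.8, 14.4 and 11.3 FPKM in tau-labelled libraries, against 11.4, 13.0 and 12.9 FPKM in control-labelled libraries, with overlapping ranges (log2 fold change -0.07, edgeR adjusted p = 0.650). SLC30A6 had 5.69, 7.18 and 5.67 FPKM in tau-labelled libraries, against 3.16, 4.45 and 5.50 FPKM in control-labelled libraries. The lowest tau-labelled FPKM lay just above the highest control-labelled one, but the groups overlapped by TMM-scaled CPM, and the log2 fold change was 0.39 (SE 0.18, edgeR adjusted p = 0.111). SLC30A6 passed in 4 of 20 other settings, without control-labelled library 3 (0.55, edgeR adjusted p = 0.0253) and with limma on FPKM (0.44 to 0.52, limma adjusted p = 0.0456 to 0.0476). SLC30A7 had 4.91, 5.73 and 4.63 FPKM in tau-labelled libraries, against 3.01, 4.30 and 5.97 FPKM in control-labelled libraries. The control-labelled range enclosed the tau-labelled one, and the log2 fold change was 0.09 (SE 0.20, edgeR adjusted p = 0.742). SLC30A9, linked to zinc export from mitochondria, had 7.55, 7.33 and 6.96 FPKM in tau-labelled libraries, against 6.28, 6.95 and 7.90 FPKM in control-labelled libraries, again overlapping (log2 fold change -0.07, edgeR adjusted p = 0.653). SLC30A3, the ZnT of synaptic vesicles, stayed between 0.386 and 0.493 FPKM in all 6 libraries. The calls in this family depended on the correction for base composition. With an offset for GC content 0 ZnTs rose and 3 fell, where 4252 of all 17927 genes tested rose and 4358 fell. Those that fell were SLC30A5, SLC30A7 and SLC30A9, with log2 fold changes of -0.46, -0.36 and -0.47 (edgeR adjusted p = 0.00221, 0.0211 and 0.00131).

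**Figure D4:**
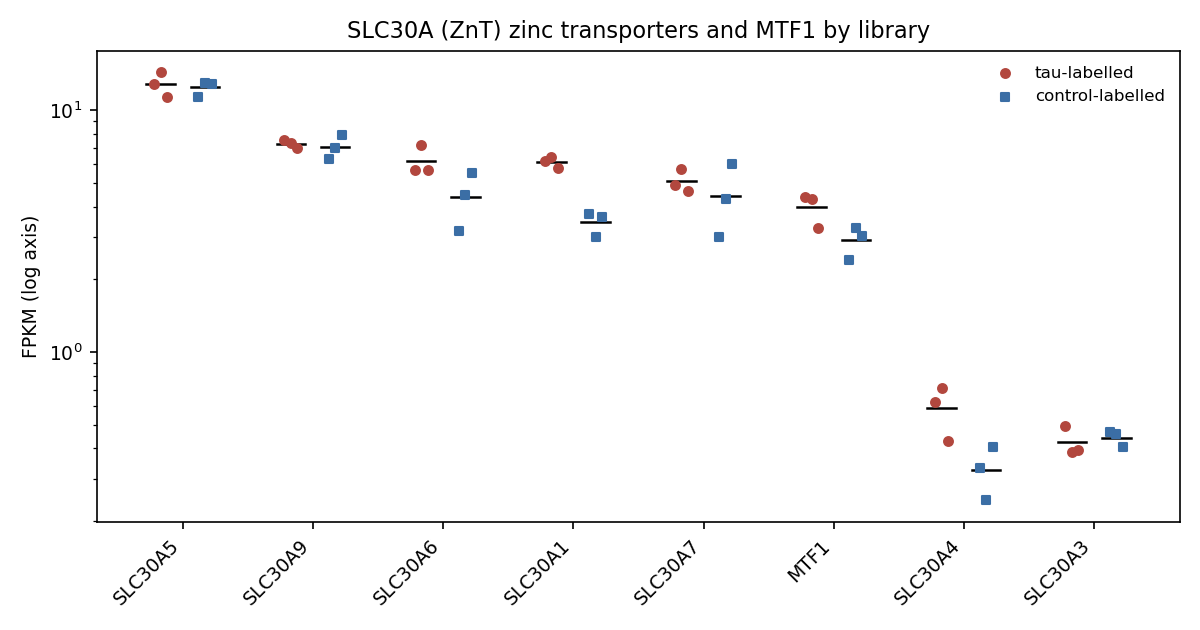
FPKM on a log axis of the 7 tested SLC30A transporters and MTF1, with each library as a point and the group mean as a line. SLC30A1 is the gene above 1 FPKM whose tau-labelled points, 5.78 to 6.41, stand furthest from its control-labelled points, 2.99 to 3.73.

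The ZIPs held changes in both directions: of 11 tested, 6 fell, 3 rose and 2 did not pass, with a median log2 fold change of -0.46. Among all genes tested, 21.4% fell and 21.3% rose. Summed over all 14 ZIP members, FPKM was 201 ± 4.62 in tau-labelled and 239 ± 3.00 in control-labelled libraries (SD, n = 3 each). SLC39A7 (chromosome 6, 33200445 to 33204439) releases zinc from the endoplasmic reticulum and Golgi into the cytosol. SLC39A7 had 52.0, 54.2 and 57.5 FPKM in tau-labelled libraries 1, 2 and 3, against 90.4, 87.8 and 80.8 FPKM in control-labelled libraries 1, 2 and 3. The groups were well apart, and SLC39A7 made up 27.1% ± 0.793 of the ZIP sum in tau-labelled and 36.2% ± 1.81 in control-labelled libraries (SD, n = 3 each). SLC39A7 fell 1.72-fold (log2 fold change -0.78, SE 0.11, edgeR adjusted p = 0.000487). SLC39A1, a zinc importer of the plasma membrane, was the second in level. It had 28.6, 29.7 and 38.0 FPKM in tau-labelled libraries, against 50.4, 45.1 and 47.1 FPKM in control-labelled libraries, with tau-labelled library 3 the closest to the control-labelled range. It fell 1.60-fold (log2 fold change -0.68, SE 0.14, edgeR adjusted p = 0.00369). Both calls held in all 20 other settings, though with an offset for GC content the log2 fold change of SLC39A1 was -0.45.

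SLC39A13, a transporter of the Golgi and cytoplasmic vesicles whose loss causes a form of Ehlers-Danlos syndrome, fell by a smaller amount. It had 21.8, 21.0 and 25.2 FPKM in tau-labelled libraries, against 28.9, 29.5 and 27.5 FPKM in control-labelled libraries. The log2 fold change was -0.46 (SE 0.12, edgeR adjusted p = 0.0116). The call ended without tau-labelled library 1 (edgeR adjusted p = 0.0549) or 2 (0.0580), without control-labelled library 2 (0.0502) and with an offset for GC content, where the value was -0.17 (0.0775). SLC39A11, reported in the Golgi and nucleus, had 4.96, 4.84 and 4.88 FPKM in tau-labelled libraries, against 5.94, 7.00 and 6.50 FPKM in control-labelled libraries. The tau-labelled values were nearly equal and below all control-labelled ones, and SLC39A11 fell 1.43-fold (log2 fold change -0.52, edgeR adjusted p = 0.00433), or by 0.34 on the log2 scale with limma at a pseudocount of 1. SLC39A4, the intestinal zinc importer mutated in acrodermatitis enteropathica, fell at a low level. It had 0.819, 0.663 and 0.804 FPKM in tau-labelled libraries, against 1.66, 1.62 and 1.35 FPKM in control-labelled libraries. SLC39A4 fell 2.19-fold (log2 fold change -1.13, SE 0.19, edgeR adjusted p = 0.00123), and by 0.69 and 0.53 on the log2 scale with limma at pseudocounts of 0.5 and 1. Its fitted fall was the largest among the members, but MT1E fell further in those limma fits. At a pseudocount of 1, SLC39A7 and SLC39A1 did too (-0.65 and -0.56). With an offset for GC content SLC39A10 and MT1E fell further.

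SLC39A6 (chromosome 18, 36108531 to 36129381), the estrogen-regulated importer also called LIV-1, was among the members that rose. It had 25.5, 25.2 and 22.7 FPKM in tau-labelled libraries 1, 2 and 3, against 10.4, 12.5 and 14.5 FPKM in control-labelled libraries 1, 2 and 3. All tau-labelled libraries were above the control-labelled ones, and SLC39A6 rose 1.81-fold (log2 fold change 0.86, SE 0.12, edgeR adjusted p = 0.000532), a call that held in all 20 other settings. Its fitted rise was the largest among the members, except that with an offset for GC content SLC39A3 rose more (0.71, against 0.55 for SLC39A6), and without control-labelled library 1 SLC30A1 did (0.80, against 0.76). Its share of the ZIP sum was 12.2% ± 1.04 in tau-labelled and 5.23% ± 0.897 in control-labelled libraries (SD, n = 3 each). The ratio of SLC39A7 to SLC39A6, the organelle and the plasma membrane transporter, was 2.04, 2.15 and 2.53 in tau-labelled libraries, against 8.67, 7.04 and 5.57 in control-labelled libraries. SLC39A10, which is known to pair with SLC39A6 in a heteromer, ran the other way. It had 1.39, 1.62 and 1.24 FPKM in tau-labelled libraries, against 1.49, 1.76 and 2.25 FPKM in control-labelled libraries, and the FPKM values overlapped. By TMM-scaled CPM the groups did not overlap, with 9.90, 11.4 and 9.18 in tau-labelled and 12.0, 13.6 and 16.9 in control-labelled libraries. SLC39A10 fell with a log2 fold change of -0.48 (SE 0.17, edgeR adjusted p = 0.0474), a call at the edge of the threshold that ended in 11 of 20 other settings, including the fits without any single library other than control-labelled library 1 (edgeR adjusted p = 0.0581 to 0.128). Over the 20 settings its value ran from -0.92, with an offset for GC content, to -0.22, with limma at a pseudocount of 1.

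SLC39A8 and SLC39A3 were the other ZIPs that rose. SLC39A8, an importer of zinc and manganese, had 4.61, 5.26 and 4.58 FPKM in tau-labelled libraries, against 2.85, 3.04 and 3.59 FPKM in control-labelled libraries. The groups did not overlap, and SLC39A8 rose 1.41-fold (log2 fold change 0.49, SE 0.12, edgeR adjusted p = 0.00801). SLC39A3, another importer of the plasma membrane, had 13.0, 13.0 and 15.3 FPKM in tau-labelled libraries, against 10.5, 8.53 and 8.69 FPKM in control-labelled libraries. It rose 1.37-fold (log2 fold change 0.46, SE 0.14, edgeR adjusted p = 0.0256). With an offset for GC content the value was 0.71. The call ended in 6 of 20 other settings, among them without tau-labelled library 3 (edgeR adjusted p = 0.0759), control-labelled library 2 (0.117) or control-labelled library 3 (0.0817). SLC39A14, the closest relative of SLC39A8 and a carrier of zinc, iron and manganese, had 29.5, 28.8 and 24.8 FPKM in tau-labelled libraries, against 24.3, 28.1 and 26.4 FPKM in control-labelled libraries. The ranges overlapped widely. Its log2 fold change was -0.04 (SE 0.10, edgeR adjusted p = 0.779). SLC39A9, a Golgi transporter also described as a membrane androgen receptor, had 15.5, 14.9 and 11.4 FPKM in tau-labelled libraries, against 11.6, 16.2 and 16.8 FPKM in control-labelled libraries. These also overlapped, and its log2 fold change was -0.21 (SE 0.15, edgeR adjusted p = 0.296), or -0.42 with an offset for GC content (edgeR adjusted p = 0.00306).

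**Figure D5:**
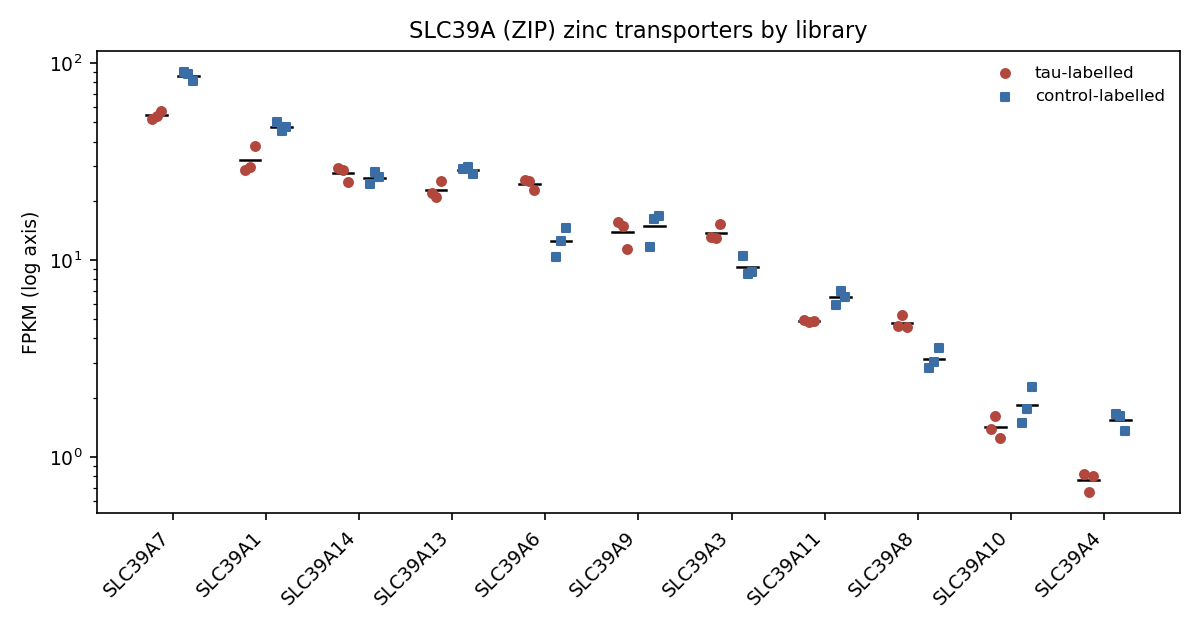
FPKM on a log axis of the 11 tested SLC39A transporters, with each library as a point and the group mean as a line, ordered by level. SLC39A7 and SLC39A1 lead in both groups with lower tau-labelled points, and SLC39A6 has tau-labelled points of 22.7 to 25.5 above control-labelled points of 10.4 to 14.5.

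ZIP levels were ordered by FPKM, which is per length. By mean FPKM, SLC39A7 came first and SLC39A1 second in both groups. SLC39A6, at 24.5 FPKM, followed SLC39A14 as the fourth in tau-labelled libraries, while at 12.5 FPKM it came after SLC39A9 in control-labelled libraries. The ranges of SLC39A1 and SLC39A14 overlapped in tau-labelled libraries. There SLC39A14, SLC39A6 and SLC39A13, at 27.7, 24.5 and 22.6 FPKM, lay within overlapping ranges, and so did SLC39A9 and SLC39A3 at 13.9 and 13.8 FPKM. Among the ZnTs SLC30A5 led in both groups, and the mean of SLC30A1 lay between those of SLC30A6 and SLC30A7 in tau-labelled libraries and below both in control-labelled libraries. Of the importers named here as acting at the plasma membrane, SLC39A1 fell while SLC39A3 and SLC39A6 rose. Of the other genes called importers above, SLC39A4 fell and SLC39A8 rose, and SLC39A10, the partner of SLC39A6, fell. Transcript GC content ran from 36.2% to 64.1% over the tested ZnTs, from 37.6% to 66.6% over the ZIPs and from 53.5% to 63.0% over the metallothioneins.

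Metal response elements were looked for in promoters, since MT2A, MT1X and SLC30A1 are textbook targets of MTF1 and differed in their calls. The core was searched as TGCACNC and as TGCGCNC on both strands of the 250 bases before each RefSeq start on GRCh38.p14. Windows of 24 members were searched, and 13 of these members held at least 1 match, where 24.8% of all 35116 promoter windows did. A member with several starts was counted once, by the start with most matches, so it had more than a single chance. The promoters of MT1E, MT1F, MT1G, MT1M, MT3, SLC30A8, SLC39A4 and SLC39A14 were not searched. Of the MT1 members that fell, MT1X alone was therefore searched. No matches overlap in the windows shown. The windows of MT2A (chr16:56608334-56608583, plus strand), MT1X (chr16:56682220-56682469, plus strand) and SLC30A1 (chr1:211579162-211579411, minus strand) follow 5′ to 3′, with matches on either strand in capitals.
MT2A: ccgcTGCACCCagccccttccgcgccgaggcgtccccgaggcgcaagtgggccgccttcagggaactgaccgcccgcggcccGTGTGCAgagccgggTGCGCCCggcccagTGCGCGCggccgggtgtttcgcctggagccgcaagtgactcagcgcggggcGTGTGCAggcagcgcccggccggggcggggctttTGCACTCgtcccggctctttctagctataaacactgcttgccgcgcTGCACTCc
MT1X: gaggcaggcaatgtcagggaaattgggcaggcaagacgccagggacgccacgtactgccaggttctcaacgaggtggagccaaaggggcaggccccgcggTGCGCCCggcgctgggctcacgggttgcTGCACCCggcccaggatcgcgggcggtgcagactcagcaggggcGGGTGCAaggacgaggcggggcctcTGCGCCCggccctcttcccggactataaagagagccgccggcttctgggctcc
SLC30A1: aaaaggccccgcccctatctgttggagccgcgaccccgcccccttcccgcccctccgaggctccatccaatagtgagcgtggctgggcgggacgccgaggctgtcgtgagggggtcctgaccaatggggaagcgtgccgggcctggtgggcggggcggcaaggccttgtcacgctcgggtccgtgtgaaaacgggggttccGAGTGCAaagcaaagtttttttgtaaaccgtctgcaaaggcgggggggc
MT2A held 7 matches and MT1X 4, where 0.37% of all windows held 4 or more, and SLC30A1 held 1. MT2A, which did not pass, MT1X, which fell, and SLC30A1, which rose, thus all carried the core in this window. Of the ZIPs that rose, SLC39A3, SLC39A6 and SLC39A8 each held 1 match. Of those that fell, SLC39A1 and SLC39A13 held 1 match each and SLC39A7, SLC39A10 and SLC39A11 held 0. SLC39A4, which also fell, was not searched. A match to the core describes the letters of the window and does not show that MTF1 binds there.

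Other genes of metal handling were read from the same fit, in which 21.3% of all genes tested rose and 21.4% fell. Of 13 tested genes of copper and divalent metal handling, 5 fell and 1 rose, with a median log2 fold change of -0.29. CCS, the copper chaperone of superoxide dismutase, averaged 6.23 ± 0.974 FPKM in tau-labelled and 12.1 ± 1.26 FPKM in control-labelled libraries (SD, n = 3 each; log2 fold change -1.07, edgeR adjusted p = 0.000563). SLC31A1 and SLC31A2, copper importers of the cell surface and of endosomes, fell by 0.69 and 0.82 on the log2 scale (edgeR adjusted p = 0.00514 and 0.00569). ATP7B, a copper-exporting ATPase, fell by 1.11 at no more than 0.153 FPKM. The rising gene, MCOLN1, a lysosomal channel that passes zinc and calcium, stood at the threshold (0.42, edgeR adjusted p = 0.0497) and is named after its value was seen. Of 13 zinc enzymes of the secretory pathway and cell surface, 6 fell and 2 rose (median -0.40). CA9, a carbonic anhydrase of the low-oxygen response, averaged 3.26 ± 0.698 FPKM in tau-labelled and 121 ± 5.76 FPKM in control-labelled libraries (SD, n = 3 each; log2 fold change -5.32, edgeR adjusted p = 6.82e-07). CA12, a related enzyme, fell by 1.26 and MMP2, a secreted gelatinase, by 0.61 on the log2 scale. NT5E, the ecto-nucleotidase CD73, rose by 0.67 on the log2 scale, with 145, 167 and 133 FPKM in tau-labelled libraries, against 75.2, 84.0 and 98.9 FPKM in control-labelled libraries.

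Of 10 other metal-responsive or MTF1-linked genes tested, 4 rose and 1 fell (median 0.22), where 42.7% of all genes tested rose or fell. HSPA1B and HSPA1A, inducible heat shock proteins encoded by near-identical neighbouring genes, rose by 1.06 and 1.10 on the log2 scale, and reads of these copies may be split between them. TXNRD1, thioredoxin reductase, rose by 0.69 (116 ± 16.3 FPKM in tau-labelled and 66.2 ± 7.98 FPKM in control-labelled libraries; SD, n = 3 each), while PGF, a placental growth factor induced through MTF1 in low oxygen, fell by 1.26 at no more than 0.176 FPKM. HMOX1, named after its value was seen, averaged 57.2 ± 4.11 FPKM in tau-labelled and 50.6 ± 3.14 FPKM in control-labelled libraries (SD, n = 3 each) and did not pass (log2 fold change 0.06, edgeR adjusted p = 0.716). Metallothionein genes are also induced by glucocorticoids. Of 10 tested genes for the glucocorticoid receptor and its usual targets, 6 fell and 3 rose (median -0.83), beside the same 42.7% of all genes. TSC22D3, a leucine zipper protein, averaged 2.42 ± 0.0824 FPKM in tau-labelled and 11.7 ± 1.55 FPKM in control-labelled libraries (SD, n = 3 each; log2 fold change -2.38, edgeR adjusted p = 3.17e-06). GLUL, CEBPD and ERRFI1 fell too (log2 fold changes -1.78, -1.33 and -1.20). The receptor gene NR3C1 and the targets FKBP5 and SGK1, all named after their values were seen, rose by 0.56, 0.92 and 1.09.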

How the data were processed

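Poly(A) RNA of 6 U87 libraries was sequenced in pairs of 150-base reads from libraries made with dUTP, per the labels' protocols. The counting tool, its annotation and its use of strand: not given in the sources used here. Whole-number counts and FPKM per gene stand side by side in the table the authors deposited. The build GRCh38, HISAT2 2.2.1, StringTie 2.1.6, cutadapt 1.9, DESeq2 and edgeR are named, without roles, per the submitters' processing notes. Deposited FPKM equalled counts divided by a gene length times a library factor (99.9% of ratios within 1% over 10677 genes). Counts were therefore tested and FPKM shown as levels.

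Genes were filtered with filterByExpr (minimum count 10, minimum total 15), scaled with TMM and tested with edgeR 4.0.16 in R 4.3.3 (quasi-likelihood, two-sided, Benjamini-Hochberg over 17927 genes, threshold 0.05). The procedure was also run on simulated data in which far fewer genes changed than were called here. Log2 fold changes smaller than 1 were not simulated. The standard error is the size of the log2 fold change divided by the square root of F. Folds are fitted and differ from FPKM ratios. DESeq2 1.42.0 and limma 3.58.1 served as alternatives. Every member was to be described, in full at a mean of 1 FPKM or more in either group, with the 4 members of smallest p that passed in each partner list. Members and lists were chosen with earlier results of these data known. Sequences are from GENCODE 29 transcripts and RefSeq promoters (GRCh38.p14). The 2 hepatocyte markers have no value here, so that check was void.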

Additional observations from a re-analysis of the deposited data

How the results depend on the processing

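Over 20 other settings, MT1E, MT1F, SLC39A1, SLC39A4, SLC39A6, SLC39A7, SLC39A8 and SLC39A11 kept their direction and their call wherever they were tested. Of 452 values over the 23 members, 377 kept direction and side of the threshold, 38 lost the call, 17 gained it and 20 changed sign, and the cause was not tested. Leaving out each library in turn gave 2890 to 3816 genes that rose and 2944 to 3954 that fell overall. Among the members it gave 3 to 5 and 6 to 9, with 1 to 3 ZnTs, 2 to 3 ZIPs and 0 metallothioneins that rose, and 0, 4 to 6 and 2 to 3 that fell. The sources used here name no pairing of libraries by replicate number. Correlations of deviations between the groups were -0.04, -0.01 and -0.09 for numbers 1, 2 and 3. Between unlike numbers they ran from -0.08 to 0.11, so no shared effect of the number was seen. The replicate block gave 3 members that rose, 1 of them a ZnT, with 7 that fell, where 3181 of all genes rose and 3139 fell. Members that rose numbered 3 with upper quartile scaling and without the low-count filter, each with 1 ZnT. Without that filter 3218 of 30148 genes rose and 3183 fell. With a mean FPKM of at least 1 and with the gene length offset, 1 ZnT rose. With the gene length offset 3631 of all genes rose and 3936 fell. With the GC content offset 0 ZnTs rose and 3 fell, where 4252 of all genes rose and 4358 fell. In 6 settings, library size alone, both offsets and limma at 3 pseudocounts, 1 metallothionein rose. Limma, run on 11129 genes (mean FPKM 1 or more), gave 2330, 2317 and 2336 genes that fell with pseudocounts of 0.5, 0.1 and 1, and 4013, 3980 and 4025 that rose. On those 11129 genes edgeR gave 2979 that fell and 3012 that rose, against 3830 and 3822 on all 17927. Library size alone gave 4590 that rose and 3183 that fell, and upper quartile scaling 3122 and 4489. With a log2 fold change of at least 1, 1344 rose and 1801 fell, among them 0 members that rose and 2 that fell, 1 ZIP and 1 metallothionein.

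Sign changes touched 6 members, none of which had passed. Under library size alone, SLC30A5 became 0.0430, SLC30A9 0.0426 and SLC39A14 0.0729. Under limma at pseudocounts of 0.5, 0.1 and 1, SLC30A5 became 0.0416, 0.0428 and 0.0402, SLC30A9 0.0486, 0.0515 and 0.0453, and SLC39A14 0.0741, 0.0751 and 0.0728. Leaving out each library gave -0.0810 to 0.0153 for SLC39A14 and -0.107 to 0.328 for SLC30A7. SLC30A7 became -0.00587 with upper quartile scaling, -0.0620 with the gene length offset and -0.357 with the GC content offset. With the GC content offset SLC30A3 became 0.138 and SLC30A6 -0.0417. The 9 untested members were under the filter on low counts, so no change in them could be assessed.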
